A study of Mus musculus with 2 samples.

Results

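The data cover 7 genes linked to gastric secretion, followed by name in sorted cells of the mouse pylorus. They were Gif, Pgc, Pga5, Lipf and Chia, which encode secreted proteins, and Pdia2 and Gper, whose products stay in or on the cell. The arrays name Cblif as Gif, Chia1 as Chia and Gper1 as Gper, and these older names are kept. The 7 genes were among 27729 distinct gene and transcript names and were represented by 8 of 41174 gene probes, with 2 probes for Chia and 1 for each of the others.

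The mice were Lgr5-EGFP-ires-CreERT2 knock-in animals, in which green fluorescent protein (GFP) and an inducible Cre recombinase are made from the Lgr5 locus. Lgr5 is a receptor of the Wnt pathway that marks stem cells of several epithelia. Both cell populations carried the knock-in allele, and neither a Cre-inducing treatment nor the age of the animals was given in the sources used here. The pylorus of 20 mice (20 stomachs) was trypsinized, and cells with high GFP (GFPhigh) and low GFP (GFPlow) were sorted by flow cytometry. RNA of the 2 populations was hybridised together on 2 Agilent arrays, with GFPhigh in Cy3 and GFPlow in Cy5 on array 1 and the dyes exchanged on array 2. Each population gave 1 pooled RNA sample, and the 2 arrays measured those same samples again with the dyes exchanged. They count as 1 replicate, and therefore no test was made and no p-value is given. Unless another measure is named, an SD below describes the 2 arrays only and holds technical error.

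Chief cells of the stomach store inactive enzyme precursors, the zymogens, in granules and release them by exocytosis. Pepsinogens are aspartic protease precursors that cut off their own prosegment in acid, whereas intrinsic factor is a carrier protein that binds vitamin B12 for uptake in the ileum and is made by chief cells in the mouse. Gastric lipase digests fat at acid pH, and acidic chitinase cleaves chitin and is a secreted product of the mouse stomach. Glands of the pylorus are built mainly of mucous and endocrine cells, and some of their cells also store pepsinogen.

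The probes are shown because each value below is read from 1 such oligonucleotide of 60 bases. The brighter probe of Chia stands for that gene and is described by its position. Sequences are those in the deposited files, 5′ to 3′, for the 4 genes higher in GFPhigh and for the dimmer of the probes of Chia.
Gif probe: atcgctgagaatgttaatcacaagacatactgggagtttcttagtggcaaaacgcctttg
Pgc probe: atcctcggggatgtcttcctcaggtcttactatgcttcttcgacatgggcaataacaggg
Pga5 probe: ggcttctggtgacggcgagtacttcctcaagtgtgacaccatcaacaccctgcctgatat
Pdia2 probe: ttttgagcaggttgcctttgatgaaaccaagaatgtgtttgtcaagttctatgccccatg
Chia dimmer probe: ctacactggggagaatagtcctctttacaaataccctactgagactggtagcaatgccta

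In build mm9, named in the headers of the files, the Gif probe lies at chr19:11834842-11834901 and the Pgc probe at chr17:47871203-47871263. The Pgc coordinates cover 61 positions, 1 more than the 60 bases of the probe. The Pga5 probe is given at chr19:10743903-10744036 and the Pdia2 probe at chr17:26333537-26333676, on the reverse strand. Their coordinates span 134 and 140 positions, so the 60 bases of each are not contiguous in the genome. The dimmer Chia probe lies at chr3:105931423-105931482 and the brighter at chr3:105934967-105935026. The Gper probe is at chr5:139903348-139903407 and the Lipf probe at chr19:34051173-34051232. Exons are not given, since a gene annotation for mm9 was not used here.

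Of the 7 genes, 6 were measured, meaning that in each array the signal of the brighter population stood well above its background. Intrinsic factor, both pepsinogens and the disulphide isomerase Pdia2 exceeded 2-fold towards GFPhigh on each array, Chia exceeded it towards GFPlow, Gper did not reach 2-fold on both arrays and Lipf was not measured. That is 4 of 6 measured genes higher in GFPhigh, against 1.76% of the 7832 genes compared (138 genes), and 1 of 6 higher in GFPlow, against 2.69% (211 genes). The genes were chosen with these directions known, so the counts are a description. The median log2 ratio of GFPhigh over GFPlow was 1.97 over the 6 genes and -0.06 over all genes. In RNA of whole populations, fewer cells of a type and less RNA per cell cannot be told apart.

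**Figure D1:**
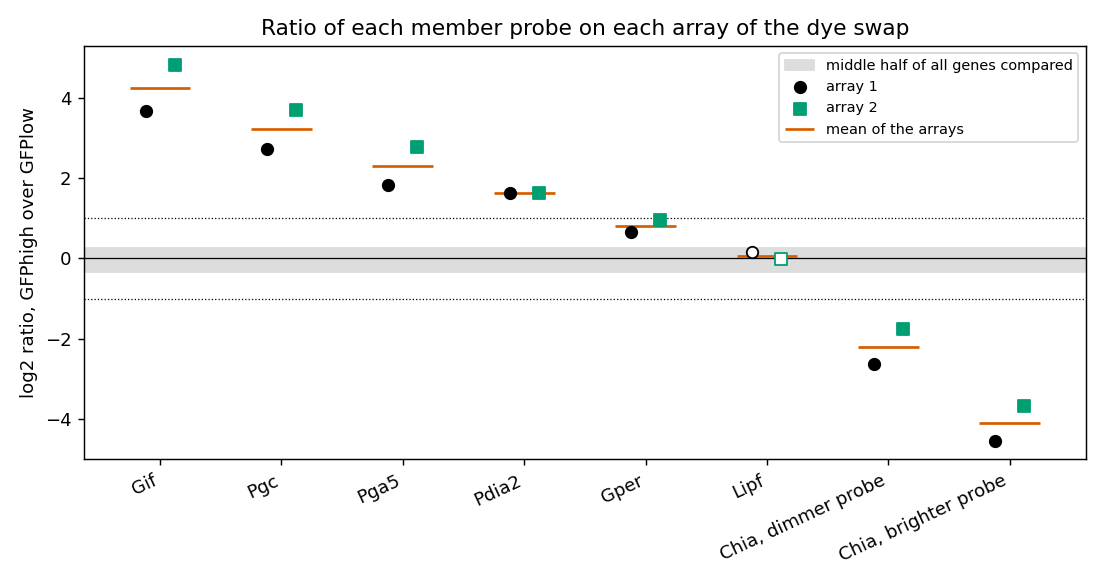
Log2 ratio of GFPhigh over GFPlow for each of the 8 probes on array 1 (circles) and array 2 (squares), with the mean of the arrays as a line. Hollow symbols mark Lipf, which was not measured, dotted lines mark 2-fold, and the grey band spans the quartiles of all genes, from -0.34 to 0.26. Gif, Pgc, Pga5 and Pdia2 lie above the upper dotted line on both arrays and Chia lies below the lower one.

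Gif, the carrier of vitamin B12, had the largest ratio towards GFPhigh of all 7832 genes. On array 1 its net signal, the mean spot brightness less the local background, was 47900 scanner units in GFPhigh and 2950 in GFPlow. On array 2 it was 29700 in GFPhigh and 5670 in GFPlow. GFPhigh was thus the brighter population in either dye, before any dye normalization. Loess normalization gave log2 ratios of 3.67 (array 1) and 4.83 (array 2), with a mean of 4.25 ± 0.82 (SD, 2 arrays), which is 19.1-fold.

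Pgc encodes progastricsin, the precursor of the pepsin type that is widespread in gastric and pyloric glands. Its net signal was 97100 in GFPhigh and 11800 in GFPlow on array 1, and 50400 in GFPhigh and 23900 in GFPlow on array 2. None of these spots was saturated, and again GFPhigh was brighter in either dye. Its log2 ratios of 2.73 and 3.71 averaged 3.22 ± 0.69, or 9.32-fold, which ranked 2 of 7832 from the GFPhigh side. With the processed signals Pgc was at 3.24, below the gastrokine gene Gkn3 at 3.3. In GFPlow the spot was still 89.2 times the local background on array 1 and 435 times on array 2, so Pgc RNA was present in both populations.

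The second pepsinogen gene, Pga5, encodes a precursor of pepsin A. Its net signal was 4880 in GFPhigh against 1030 in GFPlow on array 1, and 2840 against 1770 on array 2. Array 1 gave a log2 ratio of 1.84 and array 2 one of 2.78, with a mean of 2.31 ± 0.66, or 4.96-fold, at rank 11 of 7832. All 4 signals were well above background, and those of GFPhigh exceeded those of GFPlow on both arrays.

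Of the secreted products, Lipf could not be measured. Its spots were 2.56 and 1.45 times the local background in GFPhigh on arrays 1 and 2, and 1.41 and 2.72 times in GFPlow. None of the 4 signals was well above background, so no fold is given. Gastric lipase RNA was not detectable with this probe in either population, which does not show that it is absent.

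**Figure D2:**
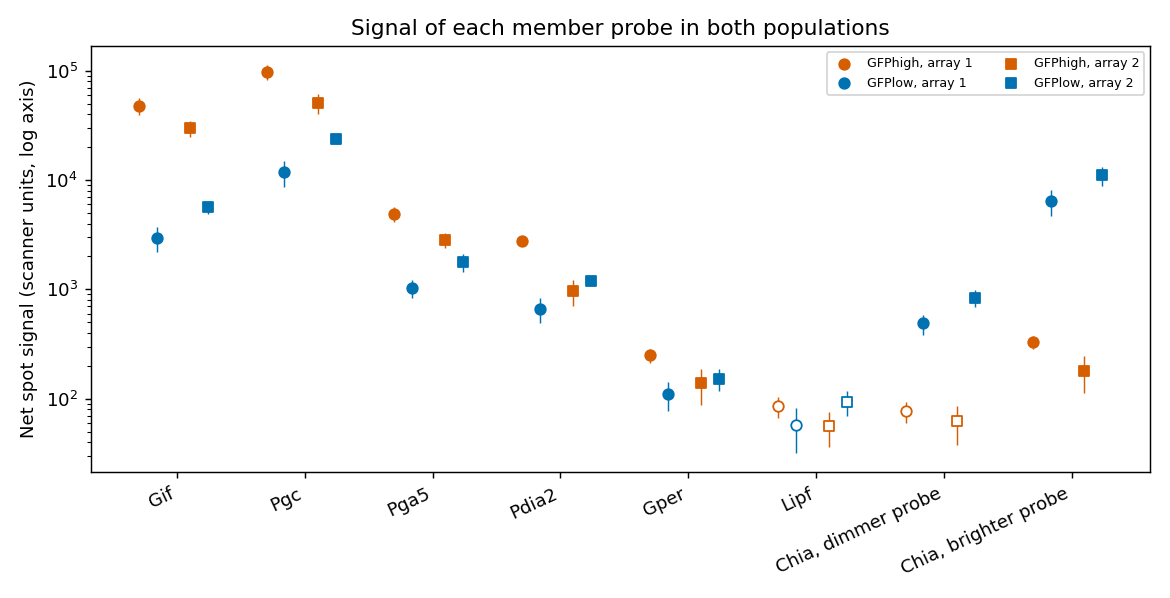
Net spot signal in scanner units (log axis) of each probe in GFPhigh (orange) and GFPlow (blue) on array 1 (circles) and array 2 (squares). Bars are the SD over the pixels of a spot, and hollow symbols were not well above background. Signals of different probes are not comparable with each other. For Gif, Pgc and Pga5 the orange symbol is above the blue one on both arrays, for Pdia2 and Gper on array 1 only, and for Chia the blue symbol is above on both.

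Chia, the acidic chitinase, had the lowest ratio of all 7832 genes with its brighter probe standing for the gene. Averaged over both probes it was at -3.15, above the -3.27 that Dmbt1 had with its brightest probe, although its dimmer probe gives only a bound. Its brighter probe had a net signal of 330 in GFPhigh and 6380 in GFPlow on array 1, and of 181 in GFPhigh and 11000 in GFPlow on array 2. Its log2 ratios of -4.54 and -3.68 averaged -4.11 ± 0.61, or 17.3-fold higher in GFPlow. GFPhigh was above background on both arrays, at 6.33 and 2.36 times the local background.

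The dimmer Chia probe was also brighter in GFPlow on both arrays. Its net signal was 76.8 in GFPhigh and 488 in GFPlow on array 1, and 62.4 and 840 on array 2. On neither array was GFPhigh well above background, so the ratio is a bound of at least 4.4-fold higher in GFPlow. The bound sets the GFPlow mean level, normalized over both arrays, against the higher of the probe's own GFPhigh level and the lowest level detected on each array. The size of its ratio therefore cannot be set against that of the brighter probe.

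Pdia2 encodes a protein disulphide isomerase of the endoplasmic reticulum, an enzyme that forms and rearranges the disulphide bonds of secretory proteins and is best known from the pancreas. On array 1 its net signal was 2760 in GFPhigh and 663 in GFPlow. On array 2 it was 960 in GFPhigh and 1200 in GFPlow, so the raw order was opposite in the other dye orientation. After loess the log2 ratio was 1.62 on each array, a mean of 1.62 ± 0.00, or 3.08-fold, at rank 59 of 7832. With each array centred on its median in place of loess, the ratio was 1.94 on array 1 and -0.08 on array 2.

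Gper encodes a membrane receptor for oestrogen that acts through G proteins. Its signals were low, at 249 in GFPhigh and 110 in GFPlow on array 1 and 138 and 153 on array 2, or 1.82 to 5.25 times the local background. Log2 ratios of 0.65 and 0.97 averaged 0.81 ± 0.23 and were under 2-fold on each array. From the processed signals it was 1.53, with 1.18 and 1.87 on the arrays, and Gper then passed 2-fold. With spike-in centring it was -0.06 on array 1 and 1.03 on array 2.

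**Figure D3:**
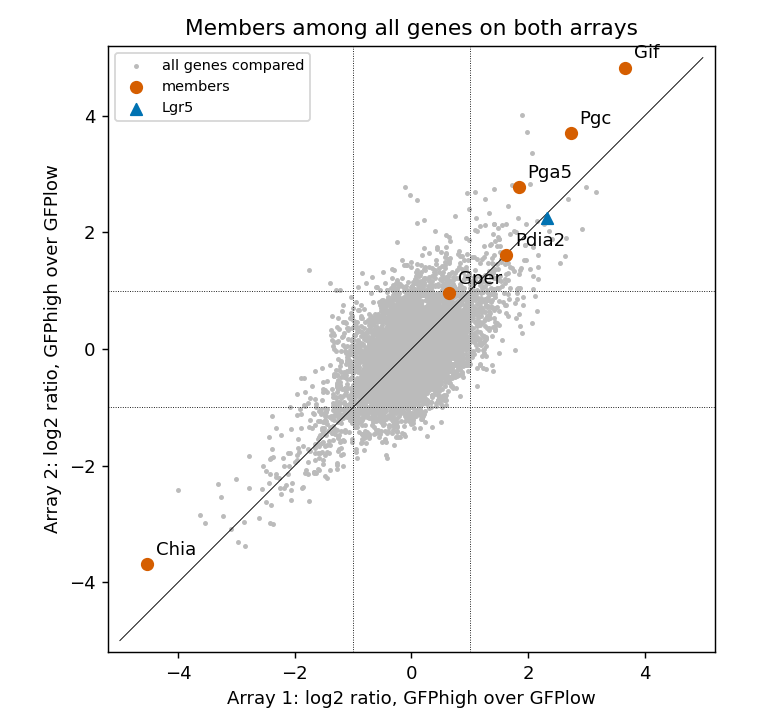
Log2 ratio of GFPhigh over GFPlow on array 1 (x axis) and array 2 (y axis) for all 7832 genes compared (grey), the 6 measured genes (orange) and Lgr5 (blue triangle). Dotted lines mark 2-fold and the diagonal marks equal ratios. Gif at the upper right and Chia at the lower left have the most extreme mean ratios, and Gper lies inside the 2-fold lines.

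Lgr5, which the sort selected for, was at 2.28 ± 0.06, higher in GFPhigh as labelled. Of all gene spots, 28.6% and 18.7% stood well above background in GFPhigh on arrays 1 and 2, and 25.1% and 31.7% in GFPlow. The 2 arrays differed by a median of 0.38 log2 units over all genes, and across genes, which are not independent replicates, their ratios had a Pearson correlation of 0.597 and a Spearman correlation of 0.473. Probes spotted 5 or more times had a median SD within an array of 0.16 over 86 probes on array 1 and 0.25 over 95 on array 2. This SD is another measure, over other probes, than the gap between the arrays.

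The gap between the arrays was wide for the genes with the most extreme ratios. Array 2 minus array 1 was 1.16 for Gif, 0.98 for Pgc, 0.94 for Pga5 and 0.86 for the brighter Chia probe. Those gaps exceeded 95.6%, 91.4%, 89.9% and 87.0% of all genes. Their sign was the same whether the gene was higher in GFPhigh or in GFPlow. Among the 361 genes with a net signal of 5000 or more, which include Gif and Pgc, the median gap was 0.66 and 286 were higher on array 2. Among the 1266 genes between 1000 and 5000, which include Pga5, Pdia2 and Chia, it was -0.04.

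The gap was 0.32 for Gper and 0.00 for Pdia2. Differences between neighbours in the order of ratios were therefore also taken within each array. Gif exceeded Pgc by 0.94 on array 1 and 1.12 on array 2 (1.03 ± 0.12), and Pgc exceeded Pga5 by 0.89 and 0.93 (0.91 ± 0.03). Pga5 exceeded Pdia2 by 0.22 and 1.16 (0.69 ± 0.67), a difference close to its own spread. Pdia2 exceeded Gper by 0.97 and 0.65 (0.81 ± 0.23), and Gper exceeded Chia by 5.19 and 4.65 (4.92 ± 0.38). In the loess ratios the order Gif, Pgc, Pga5, Pdia2, Gper, Chia was the same on both arrays. On array 2 Gper lay above Pdia2 under median centring (0.19 against -0.08) and under spike-in centring (1.03 against 0.76).

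The size of each ratio depended on the dye normalization. Averaging the net log2 ratios of the 2 arrays, which cancels a dye effect common to both, gave 3.21 for Gif (9.24-fold), 2.06 for Pgc (4.17-fold), 1.47 for Pga5 (2.77-fold), 0.87 for Pdia2, 0.52 for Gper and -5.10 for the brighter Chia probe (34.3-fold higher in GFPlow). Loess moved Gif by -0.33 (array 1) and 2.44 (array 2), averaging 1.06, and Pgc by -0.30 and 2.63, averaging 1.16. Before loess the median ratio, averaged over the arrays, was -1.19 for the 361 brightest genes and -0.47 for the 2556 genes under 200 scanner units. After loess the medians were -0.11 and -0.10. The reported ratios are therefore relative to genes of similar brightness.

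**Figure D4:**
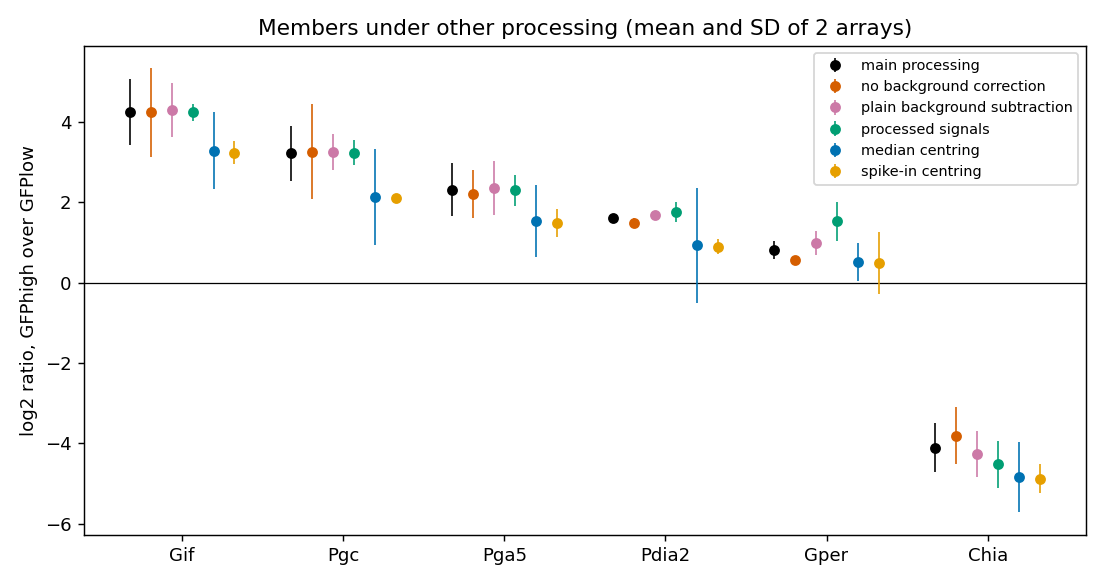
Log2 ratio of GFPhigh over GFPlow of each measured gene under the main processing and 5 alternatives, as the mean and SD of the 2 arrays. All means for Gif, Pgc, Pga5, Pdia2 and Gper lie above 0 and all means for Chia below it, and median and spike-in centring give the lowest mean for each gene.

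The median over all genes was -0.06 with loess, -0.49 with median centring and -0.53 with spike-in centring. Under median centring 2 of the 6 genes, Gif and Pgc, were higher in GFPhigh and 1 in GFPlow, and the split over all genes was 10 against 215 in place of 138 against 211. Under spike-in centring 3 of the 6, Gif, Pgc and Pga5, were higher in GFPhigh and 1 in GFPlow, and 27 against 933 genes overall. Gif was 3.28 and 3.24 under these centrings, Pgc 2.14 and 2.10, and Chia -4.84 and -4.88. The deposited ratios of the scanner software gave smaller gaps for the brightest probes. For Gif they were 4.39 ± 0.46 on array 1 and 4.10 ± 0.44 on array 2, where the error is that of the software for 1 array, and for Pgc 3.47 ± 0.38 and 3.02 ± 0.35.

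Promoters are shown for the 3 of the 7 genes with the most extreme ratios, Gif and Pgc on one side and Chia on the other. Each line gives the 100 bases before the start of transcription in the RefSeq promoter table of build GRCm38.p6, on the plus strand. Capitals mark TATAAA, the TATA box, and CANNTG, the E-box core bound by helix-loop-helix factors such as Bhlha15, searched on both strands.
Gif (Cblif), chr19:11747459-11747558: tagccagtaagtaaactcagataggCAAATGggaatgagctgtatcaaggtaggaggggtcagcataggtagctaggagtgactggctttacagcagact
Pgc, chr17:47726742-47726841: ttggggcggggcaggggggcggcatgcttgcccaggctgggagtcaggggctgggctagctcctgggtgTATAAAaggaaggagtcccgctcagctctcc
Chia (Chia1), chr3:106113282-106113381: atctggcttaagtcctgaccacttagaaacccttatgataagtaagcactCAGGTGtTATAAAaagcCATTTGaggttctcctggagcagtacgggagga

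The Pgc window held 1 TATAAA, with its first base 31 bases before the start, and 0 CANNTG. The Chia window held 1 TATAAA, 43 bases before the start, and 2 CANNTG, and the Gif window held 0 TATAAA and 1 CANNTG. Of 32851 promoter windows of this length, 5.56% held TATAAA and 34.4% held CANNTG. The table matched 6 of the 7 genes. These matches are a description of the letters in this window.

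Other genes of the chief cell were taken as a list of 14, of which 7 were measured. Of these 3 passed 2-fold towards GFPhigh on each array, against 1.76% of all genes, and 0 towards GFPlow, against 2.69%. Their median was 1.16 against -0.06 for all genes. The list was chosen with earlier results of these data known, so these values are a description. Cckar, at 1.1 ± 0.31, did not pass and was above background in GFPhigh alone, so it counted as measured only through GFPhigh. With no filter on dim probes the median of all 14 genes was 0.27. Clps, the colipase gene known mainly from the pancreas, was at 2.09 ± 0.94, with 1.42 and 2.75 on the arrays. Creb3l4, a transcription factor gene of the secretory pathway, was at 1.84 ± 0.41 and Slc9a3, a sodium-proton exchanger gene, at 1.68 ± 0.80. Xbp1, a regulator of secretory capacity, was at 1.16 ± 0.88 and did not pass. Bhlha15, the helix-loop-helix factor Mist1 of mature zymogenic cells, was at 1.28 and 0.86 on the arrays, averaging 1.07 ± 0.30, and did not pass either. Rab3d was the lowest of the 7 at 0.36 ± 0.11, and median and spike-in centring turned it to -0.32 and -0.36. Under these centrings 0 of the 7 passed, with medians of 0.93 and 0.89. With the processed signals 5 passed, Cckar among them. The muscarinic receptor genes Chrm1 and Chrm3 and the gastrin receptor gene Cckbr were among the 7 genes not measured.

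The protein families of the members were mostly within 2-fold. Of 10 aspartic protease genes 6 were measured, and Pgc and Pga5 were the only ones past 2-fold. The lysosomal cathepsin D gene Ctsd was at 0.90 ± 0.41 and Ctse, the gene of cathepsin E, a protease of surface epithelium, at -0.57 ± 0.34. Spike-in centring put Ctse at -1.44, past 2-fold on both arrays. Of 17 disulphide isomerase family genes 14 were measured, with a median of 0.19, and Pdia2 alone passed. Dnajc10 followed at 0.61 ± 0.74, then P4hb, the founding member of the family, at 0.48 ± 0.33 and Pdia5 at -0.48 ± 0.06. Spike-in centring put Pdia5 at -1.08, past 2-fold on both arrays, and neither centring left Pdia2 past it. Median and spike-in centring turned Dnajc10 and P4hb to below 0, and the family's median to -0.40 and -0.44.

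Among 14 genes of vitamin B12 uptake and use, 9 were measured and Gif alone passed. Tcn2, the plasma carrier transcobalamin, was at 1.1 ± 0.52, Cd320, its receptor, at 0.51 ± 0.19 and Mmab, a mitochondrial enzyme gene of the cobalamin pathway, at -0.38 ± 0.43. With the processed signals Tcn2 was at 1.70 and passed, making 2 of 9. The list median was 0.16, and -0.36 and -0.40 under median and spike-in centring, where Cd320 was at -0.01 and -0.04. Of 8 chitinase family genes on the arrays only Chia and Chid1 (0.33 ± 0.57) were measured, and both centrings turned Chid1 to below 0. None of the 5 acid lipase family genes on the arrays was measured, and Gper was the one measured gene of the 3 oestrogen receptors.

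**Figure D5:**
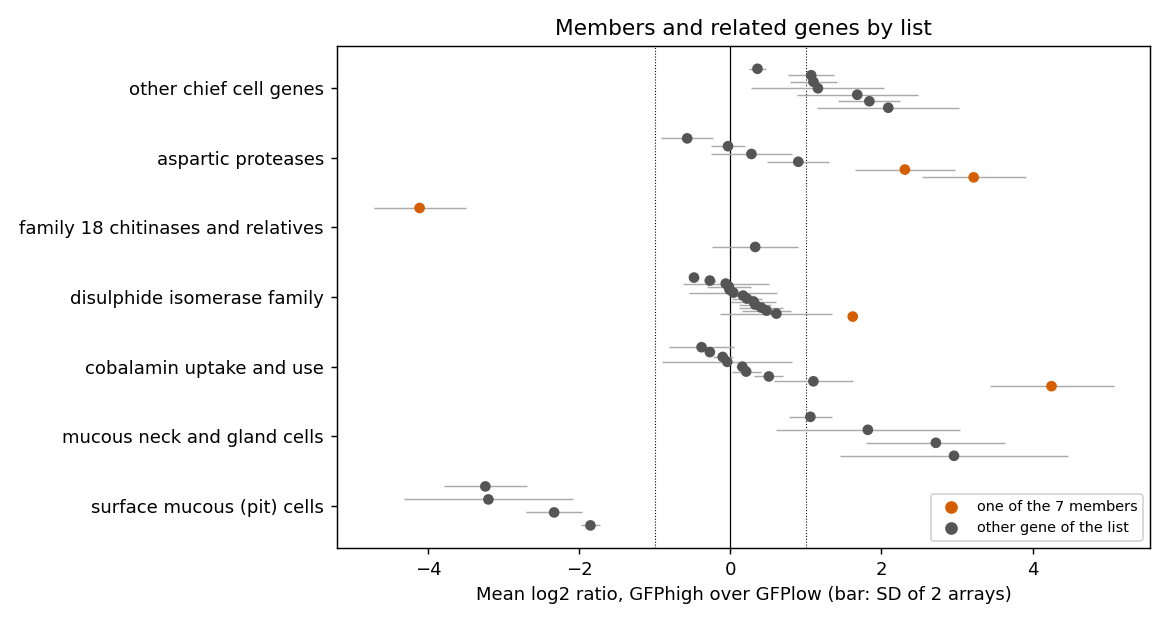
Mean log2 ratio of GFPhigh over GFPlow (x axis) of the measured genes of 7 lists (rows), with the SD of the 2 arrays as bars and dotted lines at 2-fold. The followed genes are orange and the other list genes dark grey. Pgc, Pga5, Pdia2, Gif and Chia lie outside the 2-fold lines while the other measured genes of their families lie within them, except the mean of Tcn2 at 1.1. The lower rows show mucous gland markers on the GFPhigh side and surface mucous markers on the GFPlow side.

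Lists of markers of the cell types a pyloric sort could hold were set beside the followed genes. They were chosen with earlier results of these data known. Of 5 chief cell markers 4 were measured, Gif, Pgc, Pga5 and Bhlha15, and Lipf was not above background. All except Bhlha15 are followed genes, so this list is no independent check of a chief cell label. Bhlha15, at 1.28 and 0.86 on the arrays, did not pass. All 4 markers of mucous neck and gland cells were measured, with a median of 2.27. Of these 2 passed 2-fold towards GFPhigh, against 1.76% of all genes compared. The 2 were the gastrokine gene Gkn3 (2.96 ± 1.51) and the water channel gene Aqp5 (2.72 ± 0.92). Tff2 (1.82 ± 1.22) and Muc6 (1.06 ± 0.28) did not pass. The list median was 1.21 and 1.17 under median and spike-in centring, where 2 of 4 passed, and all 4 passed with the processed signals. The part of mucous gland cells in the ratios of Gif, Pgc and Pga5 was not tested.

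All 4 surface mucous cell markers were higher in GFPlow, the side of Chia, with a median of -2.77. Of all genes compared, 2.69% passed 2-fold towards GFPlow. The marker lists were chosen with earlier results known, so the counts here are a description. Gkn2 was at -3.24 ± 0.55, Tff1 at -3.20 ± 1.12 and Muc5ac at -2.33 ± 0.37, and Gkn1 was measured in GFPlow alone. Of 5 endocrine markers 4 were higher in GFPlow, led by Chgb (-2.90 ± 0.51) and Ghrl (-2.82 ± 0.71), and of 4 markers of dividing cells 3, led by Mki67 (-2.28 ± 0.20) and Birc5 (-2.26 ± 0.10). In GFPhigh the dividing cell marker Ccnb1, also called, was not above background on array 2, and Top2a, not called, on neither array. The part of surface mucous, endocrine and dividing cells in the ratio of Chia was not tested. Parietal cell markers were at 0.76 ± 0.56 (Atp4b) and 0.33 ± 0.86 (Atp4a), and neither passed. Median and spike-in centring turned Atp4a to below 0, at -0.08 and -0.12, and put Atp4b at 0.04 and 0.

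Of 5 pancreatic acinar markers on the arrays, Cpa1, Cela2a, Pnlip and Cpb1 were not well above background in the brighter population on both arrays. The remaining one, Ctrb1, was at 0.32 ± 0.69, and median and spike-in centring put it at -0.10 and -0.14. These values stand beside those of Clps and Pdia2, which are also pancreatic genes. Blood, immune and stromal markers were mostly not measured, with 1 of 5 in each list, Hbb-b1 in GFPlow alone and Acta2 at -0.55 ± 0.16. The single measured tuft cell marker, Avil, was above background in GFPlow alone and passed 2-fold towards GFPlow, a call that was lost without background correction and under median centring.

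The genes nearest to each member were found by the distance between their ratios over the 2 arrays, among 6222 other genes measured in both populations. Gif had no close neighbour, the nearest being Gkn3 at a distance of 1.96. The nearest to Pgc was Aqp5 at 0.74, with the unnamed transcript NAP027049-1 at the same rounded distance. Pga5 lay nearest to Col11a2 (0.12) and Nupr1 (0.21), and Pdia2 to Klhl8 (0.04) and Itm2c (0.11). Gper lay nearest to Nod1 (0.01). Chia was again apart, nearest to Dmbt1 at 1.21 and Gkn2 at 1.23. With 2 arrays, likeness here means a similar ratio only.

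Gif and Pga5 lie on the same chromosome, with 1090805 bases of chromosome 19 between their probes. Of 37 genes with probes in that interval, 7 were measured, and 0 passed 2-fold on each array in either direction. Their ratios ran from -1.24 (Ms4a8a) to 0.33 (AW112010), with a median of -0.35, so the ratios of Gif and Pga5 were not shared by the measured genes between them.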

How the data were processed

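The authors deposited scanner output of 2 arrays. Spot and local background intensity are given per channel, per the file headers, with processed intensities that Feature Extraction background-subtracted and dye-normalized. The deposited log10 ratio is Cy5 over Cy3. The headers name version 10.5.1.1 and the submitters' processing notes 9.5.3. A value table holds the same log10 ratios turned to GFPhigh over GFPlow (differences of at most 0.005), with column medians of 0.0188 and -0.0458, and served as an alternative.

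Background was removed from the mean signals by normexp with an offset of 50 (limma 3.58.1, R 4.3.3), which pulls dim ratios towards 0, and normalized by loess within arrays with controls at weight 0. Non-uniform and outlier spots were dropped. Saturation flagged 0 gene spots. Each gene took its brightest measured probe, and a gene was counted when at least 2-fold in the same direction on each array. Symbols came from a RefSeq table, with 8104 of 41174 probe names kept as in the files. The arrays came from 1 slide and 1 scan. They differ in dye orientation, so a difference between arrays and one between dyes cannot be told apart. Steps were tested on simulated data. All members, every measured list with up to 4 genes of largest absolute ratio, and the nearest genes were named. Members and lists were chosen with earlier results of these data known. Alternatives covered background correction, signals, centring, filter, probe rule, threshold, value table and each array alone. The number of arrays limits the precision.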

Additional observations from a re-analysis of the deposited data

How the results depend on the processing

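The mean ratios of the 6 measured genes kept their direction under every alternative run. Median and spike-in centring gave 3.28 and 3.24 for Gif, 2.14 and 2.10 for Pgc, 1.53 and 1.49 for Pga5, 0.93 and 0.90 for Pdia2, 0.52 and 0.48 for Gper, and -4.84 and -4.88 for Chia. The median of the measured genes was 1.23 and 1.19 under these centrings and 1.62 with no filter, which adds Lipf. Median centring left 2 genes higher in GFPhigh. Averaging probes put Chia at -3.15, which is no estimate because the dimmer probe gives only a bound. Without background correction Pdia2 was 1.49 and Gper 0.57, with plain subtraction Pdia2 was 1.68, and with the processed signals and the value table Pdia2 was 1.75 and Gper 1.53. The 2 arrays were equal for Pdia2 to 2 decimals, so small shifts exceed its SD.

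Over all genes, those higher in GFPhigh and in GFPlow numbered 352 and 511 with the processed signals, 352 and 507 with the value table, 27 and 933 with spike-in centring, 10 (GFPhigh) with median centring, 438 and 588 at 1.5-fold, and 32 and 72 at 3-fold. With 1 array alone they ran from 331 to 359 and from 397 to 486. The cause was not tested. Lipf had no value except with no filter, where both populations were near background. Each ratio already pairs both populations within 1 array. No test over pairs was possible because each population gave 1 pooled RNA sample.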
